A study of Mus musculus with 12 samples.

Results

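The transcripts described here are 10 genes that fibroblasts and other stromal cells use to build and hold extracellular matrix: the fibrillar collagen genes Col1a1, Col1a2, Col3a1 and Col5a1, the matrix glycoprotein genes Fn1, Postn and Sparc, the proteoglycan gene Dcn, the contractile actin gene Acta2 and the surface antigen gene Thy1. They were taken by symbol from a table of 24062 gene entries, as a check on stromal cells among cultured macrophages, and all 10 were found. All 10 also passed the filter for testing, as did 11440 entries in all. The cultures were primary bone marrow derived macrophages of wild-type C57Bl/6 mice, labelled as passage 1. They fell into 4 groups of 3 libraries: no stimulation, C-178 alone (a covalent inhibitor of STING, the adaptor of cytosolic DNA sensing), CMA alone (a small-molecule agonist of mouse STING), and C-178 with CMA. Treatment lasted 2 h. The cell type label reads macrophage in all 12 samples, while the text on RNA extraction in the same labels speaks of MEF populations. The labels do not say whether the libraries of a group came from separate cultures or animals, so the p-values below measure only the spread between these libraries.

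Fibrillar collagens are triple helices secreted by mesenchymal cells and assembled outside the cell into fibres, with type I collagen made of the products of Col1a1 and Col1a2. Fibronectin, periostin, SPARC and decorin bind or organise those fibres. Macrophages are known to make fibronectin and to degrade and take up matrix, and are not regarded as a main source of fibrillar collagen.

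Depth differed between libraries. Reads recovered per library ran from 13.907 to 17.449 M in unstimulated cultures and from 7.126 to 7.826 M under CMA. They ran from 7.049 to 28.476 M under C-178 and from 7.766 to 36.438 M under both compounds. As a check of the CMA label, Ifnb1, the interferon beta gene, had no read in the 3 unstimulated libraries and stood at 1424 to 2210.5 normalised counts with CMA. It stood at 40 to 84 with C-178 plus CMA. The libraries that stood apart within their groups for the matrix genes were CMA 1 and C-178 plus CMA 3. In each, 9 of the 10 genes were below the group mean and Thy1 was above it. Where leaving out either library changed a call, the value without it is given beside the result.

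Promoter sequence is shown for 3 of the genes, because these are the genes of the set with a TATA-like or CCAAT motif close to an annotated start and values that moved with treatment or library. RefSeq (GRCm38.p6) held a window of 300 bases, from 250 before to 50 after a start site, for 6 of the 10 genes. Capitals mark matches to TATANAA or CCAAT on either strand, which did not overlap each other.
Postn, chr3:54360857-54361156, plus strand: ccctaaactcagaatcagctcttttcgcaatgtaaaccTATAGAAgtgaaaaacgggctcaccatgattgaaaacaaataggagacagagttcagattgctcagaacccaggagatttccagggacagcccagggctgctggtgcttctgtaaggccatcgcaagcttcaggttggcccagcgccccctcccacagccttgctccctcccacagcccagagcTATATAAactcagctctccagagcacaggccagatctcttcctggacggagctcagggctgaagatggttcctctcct
Acta2, chr19:34255324-34255623, minus strand: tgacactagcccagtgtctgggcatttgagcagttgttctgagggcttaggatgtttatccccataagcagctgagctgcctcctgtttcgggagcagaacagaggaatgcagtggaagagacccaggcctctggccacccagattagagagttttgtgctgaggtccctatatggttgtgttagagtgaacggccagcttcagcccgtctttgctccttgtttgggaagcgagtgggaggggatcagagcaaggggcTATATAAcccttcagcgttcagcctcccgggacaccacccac
Col1a2, chr6:4505368-4505667, plus strand: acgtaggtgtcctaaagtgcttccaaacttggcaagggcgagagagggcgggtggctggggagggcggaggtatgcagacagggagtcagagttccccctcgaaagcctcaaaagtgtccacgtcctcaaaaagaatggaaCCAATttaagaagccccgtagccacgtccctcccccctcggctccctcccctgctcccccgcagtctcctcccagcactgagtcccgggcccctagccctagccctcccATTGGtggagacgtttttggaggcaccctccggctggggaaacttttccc
In the Postn window shown, TATANAA began 212 and 28 bases before the start site. Another Postn window (chr3:54359017-54359316), not shown, held no TATANAA and 1 CCAAT match, which began 24 bases after its start. In the Acta2 window TATANAA began 8 bases after the RefSeq start. CCAAT was found 109 bases before the Col1a2 start and, on the opposite strand, at the start itself. TATANAA was present in 11.3% and CCAAT in 37.4% of 32851 windows of the same length. The NF-κB consensus, present in 8.46% of those windows, was found in none of the windows of the 6 genes. A match is a description of the letters in the window and not a site of binding.

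The first question is how much matrix transcript these macrophage cultures held at all. Together the 10 genes took 0.0176% to 0.0184% of the unstimulated libraries' normalised counts. Of 24 macrophage markers found, all 24 were above 100 normalised counts in the unstimulated group, with a median of 14700. Lyz2, which encodes lysozyme, stood at 197000 to 220500 there. The fibroblast identity list held both low and high genes. Of 33 fibroblast identity genes found, 6 were above 100 normalised counts and 4 had no read in the unstimulated libraries, with a median of 23.4. Those above 100 included Timp2 (2103 to 2362), Igfbp4 (2157 to 2284) and Mmp14 (792 to 1123). Genes below 100, named after their values were seen, included the platelet-derived growth factor receptor genes Pdgfra (12.2 to 17.9) and Pdgfrb (22.8 to 28.1). The mesenchymal transcription factor gene Prrx1 stood at 34.0 to 38.6, and Tcf21 had no read in any of the 12 libraries. Of 40 matrix partner genes found, 12 were above 100 normalised counts and 5 had no read in the unstimulated libraries, with a median of 22.3. Lum (lumican) and Eln (elastin) were among those with no read.

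**Figure D1:**
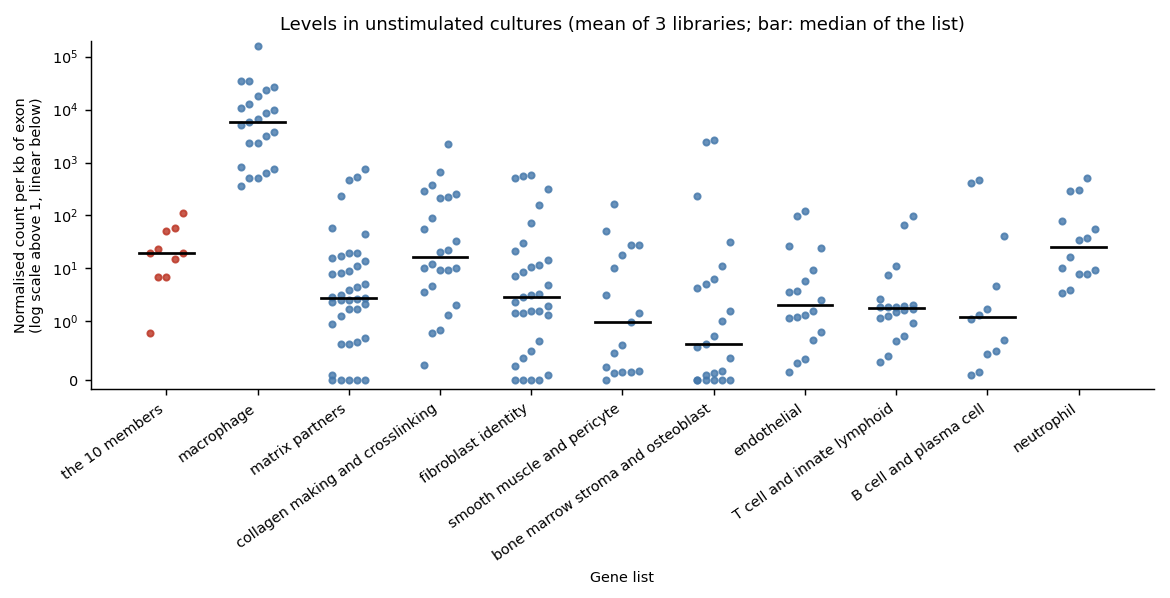
Levels of genes in the unstimulated cultures, as normalised counts per kilobase of exon (vertical axis, logarithmic above 1 and linear below), for the 10 matrix genes and 10 marker lists (horizontal axis). Each point is 1 gene as the mean of 3 libraries and each bar is the median of a list; the macrophage list has a median of 5766 and the fibroblast identity list a median of 2.92.

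Longer transcripts gather more reads, so the genes were compared per kilobase of the union of their exons. That union can be longer than the main transcript, so the order below depends on the lengths used. Acta2 had the highest value of the 10 genes in unstimulated cultures, at 111.2 ± 8.68 normalised counts per kilobase (SD, n = 3). Fn1 followed at 59.0 ± 5.28 and Sparc at 50.4 ± 8.69. The libraries of Fn1 and Sparc overlapped each other and lay below those of Acta2. Col1a1 stood at 23.3 ± 0.827, above all libraries of Col1a2 at 19.7 ± 1.05. This order rests on union lengths of 6563 and 12426 bases. In normalised counts Col1a2 was the higher of these genes, at 244.4 against 153.2. Postn stood at 19.2 ± 2.08, overlapping both Col1a2 and Dcn (15.2 ± 1.86). Thy1 (6.99 ± 1.73) and Col5a1 (6.83 ± 1.23) overlapped each other, and Col3a1 was lowest at 0.796 ± 0.20. Of 17 other smooth muscle and pericyte genes found, 2 were above 100 normalised counts in the unstimulated group. The list had a median of 6.12 normalised counts (0.985 per kilobase) and a sum of 1382 to 1512. Its highest genes over all libraries were Tpm1, Tagln and Tpm2. Tagln stood at 97.3 to 111 normalised counts and Myh11 at 0.597 to 3.80 without stimulation.

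Adding the STING agonist asks which of these transcripts moved within 2 h. With CMA, 3 of the 10 genes rose (Postn, Acta2 and Col1a1) and Thy1 fell, by limma with Benjamini-Hochberg adjustment over all 11440 tested genes (adjusted p under 0.05). The rises of the called genes were 1.6- to 2.0-fold. Calls of a rise made up 19.4% and calls of a fall 17.9% of all genes tested, so 3 and 1 of 10 are near the background. The libraries of the CMA group all lay above those of the unstimulated group for 7 of the 10 genes, where 31.0% of all genes tested did so. The median log2 change of the 10 genes was 0.69, against -0.01 over all tested genes. In bulk RNA, more or fewer stromal cells and more or less RNA per cell cannot be told apart. An exact permutation test on 3 against 3 libraries cannot go below a two-sided p of 0.1, so single genes were judged by the limma fit alone.

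The type I collagen genes moved with each other. Col1a1 (chr11:94936224-94953042, plus strand, mm10) stood at 159, 148 and 152 normalised counts without stimulation and at 179.7, 367 and 303 with CMA. All 3 CMA libraries were above all 3 unstimulated ones, and CMA 1 was only just so. The rise was 1.85-fold (log2 change 0.82 ± 0.30 SE, adjusted p = 0.0436 by limma). Col1a2 (chr6:4504814-4541544, plus strand) stood at 229.6, 254 and 249.9 without stimulation and at 277, 537 and 519 with CMA, again without overlap. Its log2 change of 0.80 ± 0.33 did not pass (limma adjusted p = 0.0700), and passed in edgeR (0.0451) and in DESeq2 (0.0236). Without CMA 1 it was 1.11 (limma adjusted p = 0.0198), and it passed in limma without C-178 plus CMA 1 (adjusted p = 0.0450) or C-178 plus CMA 3 (0.0104). The Col1a1 call was lost when CMA 2 (adjusted p = 0.187), CMA 3 (0.129), C-178 1 (0.0518), C-178 3 (0.0575) or any of the 3 unstimulated libraries (0.0865 to 0.108) was left out of the limma fit.

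Col3a1, the type III collagen gene (chr1:45311538-45349706, plus strand), rested on few reads. It had 13, 10 and 12 reads in the unstimulated libraries (9.88, 5.97 and 7.59 normalised counts) and 5, 15 and 18 reads with CMA (8.24, 29.6 and 33.0). CMA 1 lay inside the unstimulated range and CMA 2 and CMA 3 well above it. The log2 change was 1.29 ± 0.52 (limma adjusted p = 0.0669), and 1.90 without CMA 1 (adjusted p = 0.00731). It passed in edgeR (log2 change 1.56, adjusted p = 0.0298) and in DESeq2 (1.59, 0.0177). In limma it also passed without C-178 plus CMA 2 (adjusted p = 0.0478) or C-178 plus CMA 3 (just under 0.05). Col5a1, whose product nucleates type I fibres (chr2:27886425-28039514, plus strand), went from 66.1, 61.5 and 46.2 to 69.2, 103 and 108. The groups did not overlap, and the log2 change of 0.67 ± 0.28 did not pass (limma adjusted p = 0.0726). It passed without CMA 1 (0.87, adjusted p = 0.0380) and without C-178 plus CMA 3 (adjusted p = 0.0294).

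**Figure D2:**
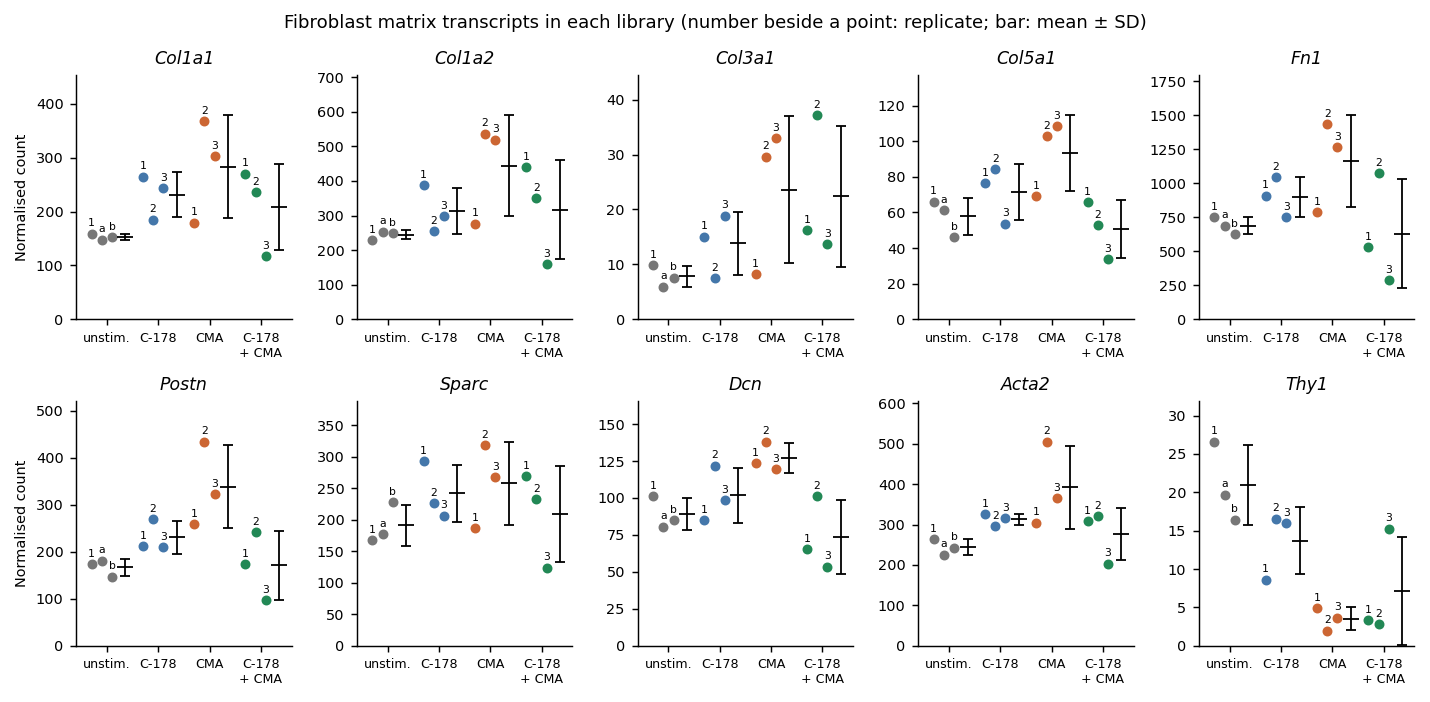
Normalised count (vertical axis, linear from 0) of each of the 10 genes in every library of the 4 groups (horizontal axis). Points are libraries with their replicate number or letter, and bars are the group mean ± SD (n = 3); for Postn the CMA libraries (259 to 434) lie above all unstimulated ones (147 to 181), and CMA 1 and C-178 plus CMA 3 are the lowest of their groups for most genes.

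Among the glycoproteins, Postn was the one that rose past the threshold. Periostin is a matricellular protein that binds collagen and integrins. Its gene (chr3:54361109-54391037, plus strand) is the one with TATANAA 28 bases before the start of the window shown above. It stood at 174, 181 and 147 without stimulation and at 259, 434 and 323 with CMA. All CMA libraries were above all unstimulated ones, and the rise was 2.03-fold (log2 change 0.99 ± 0.28, limma adjusted p = 0.0125). Without CMA 2 it was 0.79 (adjusted p = 0.0682) and without unstimulated library b 0.90 (adjusted p = 0.0521).

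Fn1 (chr1:71585520-71653200, minus strand), the fibronectin gene, had the most reads of the 10. It stood at 751, 689 and 628 without stimulation and at 788, 1439 and 1265 with CMA. The groups did not overlap, with CMA 1 next to the unstimulated range, and the log2 change of 0.71 ± 0.36 did not pass (limma adjusted p = 0.134). It passed when C-178 plus CMA 2 (0.0300) or C-178 plus CMA 3 (0.0313) was left out of the estimate of spread. Sparc, which encodes a collagen-binding protein (chr11:55394500-55423183, minus strand), ran from 167, 177 and 228 to 186, 318 and 268. These groups overlapped (log2 change 0.41 ± 0.27, limma adjusted p = 0.267). Dcn, the decorin gene (chr10:97479609-97518143, plus strand), stood at 101.1, 80.6 and 84.8 and then at 124, 138 and 119. The CMA libraries were tight and all above the unstimulated ones, and the log2 change of 0.52 ± 0.22 did not pass (limma adjusted p = 0.0883). It passed without C-178 plus CMA 2 (0.0313) or C-178 plus CMA 3 (0.0414).

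Acta2, which encodes smooth muscle alpha-actin and marks myofibroblasts and mural cells (chr19:34241090-34255590, minus strand), stood at 264, 226 and 243 without stimulation. With CMA it stood at 305, 505 and 365, above all unstimulated libraries, a 1.61-fold rise (log2 change 0.65 ± 0.20, limma adjusted p = 0.0192). The call was lost without CMA 2 (adjusted p = 0.106), unstimulated library a (0.0735) or unstimulated library b (0.0530).

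Thy1 went the other way. It encodes a surface glycoprotein of fibroblasts and, in mice, of T cells (chr9:44043384-44048579, plus strand). It had 35, 33 and 26 reads in the unstimulated libraries (26.6, 19.7 and 16.4 normalised counts) and 3, 1 and 2 reads with CMA (4.94, 1.97 and 3.67). The groups were far apart, and the fall was 5.93-fold in the means (log2 change -2.31 ± 0.53 on the scale of value + 1, limma adjusted p = 0.00335). It passed in all 23 alternatives that tested it. T cell genes stood beside it as follows. Cd3e had 3.58 to 6.84 normalised counts without stimulation and 0 to 1.84 with CMA, and Cd3d 2.39 to 6.08 and 0 to 1.97. The T cell transcription factor gene Tcf7 fell (log2 change -2.33 ± 0.42, limma adjusted p = 0.000520), and so did Cd28 (-2.23 ± 0.17), whereas Lck rose (2.2 ± 0.30). Of 20 T cell and innate lymphoid genes found, 7 were tested, of which 1 rose and 2 fell. Over all genes tested 19.4% rose and 17.9% fell with CMA. The summed level of the list was 982 to 1223 without stimulation and 536 to 633 with CMA. Cd28, Il7r and Rora were its highest genes over all libraries. The part of this list in the fall of Thy1 was not tested.

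**Figure D3:**
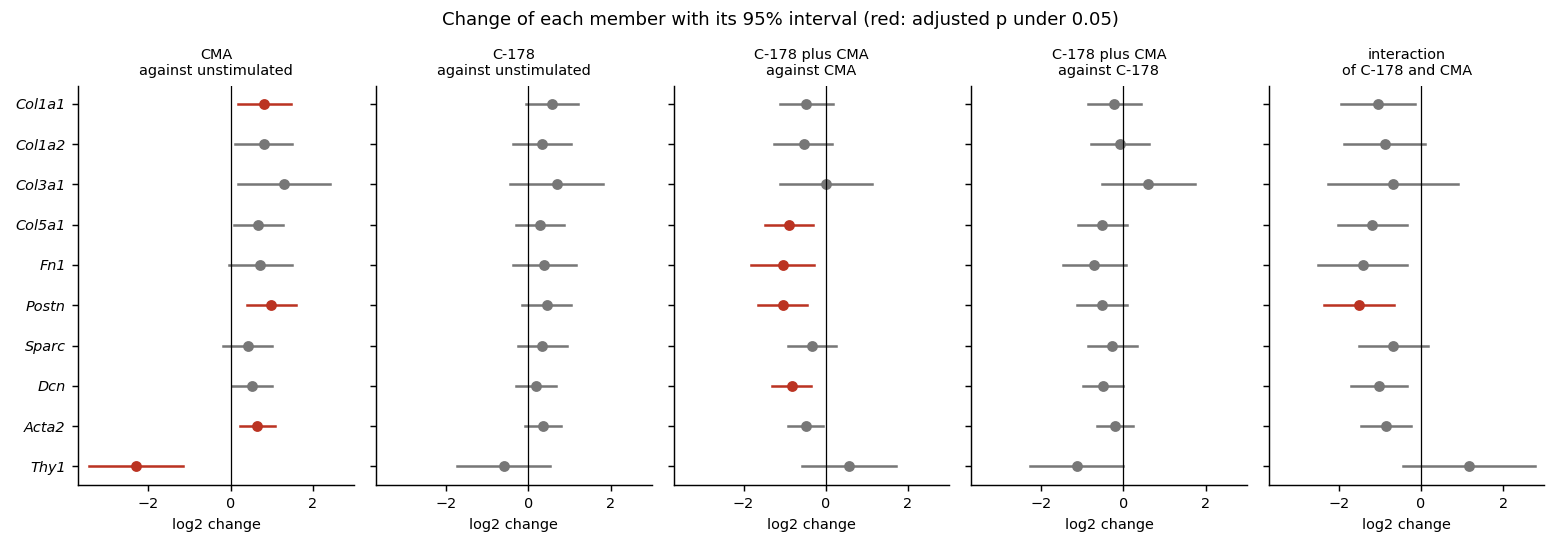
Log2 change of each of the 10 genes (vertical axis) in the 4 pairwise comparisons and the interaction (panels), with the 95% interval of the limma fit as a line. Red marks an adjusted p under 0.05; 4 genes are red for CMA against unstimulated, 4 for C-178 plus CMA against CMA, 1 for the interaction and none in the other panels.

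The inhibitor alone asks whether C-178 moved these genes without an agonist. None of the 10 was called (limma adjusted p = 1.00 for each, edgeR 0 and DESeq2 0 calls), and none had an unadjusted p under 0.05. Over all genes tested, 11 were called, all higher, which is 0.0962%, and 238 were higher and 182 lower at an unadjusted p under 0.05. Of the 10 changes 9 were positive, where 47.6% of all genes tested were, and their median was 0.35 against -0.01. The 10 genes varied with each other and share the same libraries, so these are not 10 separate observations. For 5 of the 10 (Postn, Fn1, Acta2, Col1a2 and Col1a1) all C-178 libraries were above all unstimulated ones, as they were for 7.87% of all genes. Col1a1 stood at 265, 185 and 244 with C-178, Col1a2 at 387, 256 and 298, and Acta2 at 325, 297 and 317. The log2 change of Col1a1 was 0.58 with a 95% interval from -0.06 to 1.22. That of Acta2 was 0.36 (-0.07 to 0.79), that of Postn 0.45 (-0.14 to 1.05) and that of Fn1 0.38 (-0.38 to 1.15). These intervals leave room both for no change and for a rise as large as that with CMA. With libraries weighted by their quality, Col1a1, Col3a1 and Acta2 passed (limma with array weights, adjusted p = 0.00262, 0.00882 and 0.00733). In that fit 7.19% of all genes tested were called higher and 8.97% lower.

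Adding C-178 to the agonist asks which of the CMA changes the inhibitor altered. Against CMA alone, 4 of the 10 genes fell (Postn, Fn1, Dcn and Col5a1) and none rose. Calls of a fall made up 13.5% and calls of a rise 10.6% of all genes tested. For 3 genes (Postn, Dcn and Col5a1) all libraries with C-178 plus CMA were below all CMA libraries, as they were for 18.5% of all genes. The median log2 change was -0.52, against 0.00 over all genes tested. This comparison and the one with unstimulated cultures share the CMA libraries. Left out of the fit in turn, CMA 2 left 0 of the 10 genes called, CMA 3 left 1 and C-178 plus CMA 3 left 1. C-178 plus CMA 1 left 2 and C-178 plus CMA 2 left 5. Over all genes tested these fits called 11.4%, 12.2%, 19.4%, 17.95% and 41.3%, in the same order. Over the 9 numbered libraries, the fit with the replicate block called 4 of the 10 genes and the fit without it 2. These fits called 20.8% and 14.84% of all genes tested. Library numbers were not found to pair CMA with C-178 plus CMA (correlations of -0.14, 0.18 and -0.16).

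Postn stood at 174, 241 and 96.3 with C-178 plus CMA, against 259, 434 and 323 with CMA. All 3 libraries were below the lowest CMA library, and the level was 1.99-fold lower (log2 change -1.05 ± 0.28, limma adjusted p = 0.0167). Without CMA 2 the change was -0.85 (adjusted p = 0.0831) and without CMA 3 -1.07 (0.0512). Dcn stood at 65.3, 101.4 and 53.5, each below the lowest CMA library, and was 1.73-fold lower (log2 change -0.83 ± 0.22, limma adjusted p = 0.0181). The call was lost without CMA 2 (adjusted p = 0.0715), C-178 plus CMA 1 (0.0518) or C-178 plus CMA 3 (0.0533). Col5a1 stood at 66.0, 52.8 and 33.6 and was 1.84-fold lower (log2 change -0.89 ± 0.28, limma adjusted p = 0.0331). The highest of these, 66.0, is close to the lowest CMA library at 69.2. The Col5a1 call was lost without CMA 2 (limma adjusted p = 0.115), CMA 3 (0.120) or C-178 plus CMA 3 (0.101), and in edgeR (0.0507).

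Fn1 was widely spread among the libraries with C-178 plus CMA, at 531, 1075 and 287. The second of these lies inside the CMA range. The log2 change of -1.04 ± 0.36 passed narrowly (limma adjusted p = 0.0482), and was -0.58 (adjusted p = 0.154) without C-178 plus CMA 3. The call was also lost when any of the unstimulated or C-178 libraries, which do not enter the difference but enter the estimate of spread, was left out (adjusted p = 0.0568 to 0.0660). The same held for CMA 2 (0.170), CMA 3 (0.138) and C-178 plus CMA 1 (0.0990).

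The type I collagen genes did not pass here. Col1a1 stood at 271, 236 and 118 with C-178 plus CMA and Col1a2 at 440.0, 351 and 160.4. In both genes the first 2 libraries lay inside the CMA range and C-178 plus CMA 3 below it. The log2 changes were -0.47 (95% interval -1.11 to 0.17) and -0.54 (-1.25 to 0.16). Acta2 stood at 308, 321 and 203 (log2 change -0.49 ± 0.20, limma adjusted p = 0.0838, called without CMA 1 at 0.0428 or without C-178 plus CMA 2 at 0.0335) and Sparc at 269.6, 233 and 124 (-0.34 ± 0.27, adjusted p = 0.368). Col3a1 stood at 16.2, 37.1 and 13.8, and its change of 0.00 ± 0.52 took either sign under the alternatives. Thy1 had 10, 2 and 10 reads at very different depths, giving 3.32, 2.86 and 15.3 normalised counts. C-178 plus CMA 3 was thus the library of its group with the highest Thy1 and the lowest level of each of the other 9 genes.

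Against C-178 alone, the addition of CMA moved none of the 10 genes past the threshold (limma, edgeR and DESeq2 0 calls each, with 1 gene, Dcn, at an unadjusted p under 0.05). Among all genes tested 13.5% were called higher and 12.6% lower in this comparison. The median log2 change of the 10 genes was -0.39, against 0.01 over all genes tested. Of the 10 changes 9 were negative, where 50.6% of all genes tested were positive. The Dcn change was -0.50 (95% interval -0.99 to -0.02, adjusted p = 0.115) and that of Postn -0.52 (-1.12 to 0.08). Library numbers were taken to pair these groups, and a shared culture is not stated in the labels. Taken by number, Postn, Dcn, Col5a1 and Thy1 were lower with CMA added in 3 of 3 pairs. With the replicate block none of the 4 passed (limma adjusted p = 0.122, 0.101, 0.223 and 0.191). Without C-178 plus CMA 2, Postn, Fn1 and Dcn were called lower (limma adjusted p = 0.0254, 0.00441 and 0.00951). In that fit 18.1% of all genes tested were called lower. Without C-178 plus CMA 3, Thy1 was called lower (log2 change -1.80, adjusted p = 0.00726).

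The interaction asks whether the change made by CMA differed in the presence of C-178. Only Postn passed, with a difference of -1.50 ± 0.39 on the log2 scale (limma adjusted p = 0.0316). Calls in this direction made up 5.99% and in the other 3.95% of all genes tested. The differences of Fn1 (-1.42 ± 0.50, adjusted p = 0.0808), Col5a1 (-1.18 ± 0.39, 0.0670), Col1a1 (-1.04 ± 0.42, 0.115), Dcn (-1.02 ± 0.32, 0.0570) and Acta2 (-0.85 ± 0.28, 0.0669) did not pass. Without CMA 1 that of Acta2 passed (-1.02, adjusted p = 0.0447). The median of the 10 genes was -0.95, against 0.01 over all genes tested. The Postn call was lost when CMA 2, CMA 3, C-178 2, C-178 3 or any unstimulated library was left out (adjusted p = 0.0582 to 0.0912), with differences from -1.31 to -1.57.

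Library by library, the genes varied with each other inside the groups. Taken as deviations from the group mean over 12 libraries, Col1a1 and Col1a2 had a Pearson r of 0.97, Postn and Fn1 0.95, and Fn1 and Dcn 0.82. Col1a2 and Dcn had 0.24. Thy1 was negatively related to each of the other 9, from -0.40 with Dcn to -0.94 with Sparc. These values describe 12 libraries in 4 groups whose deviations sum to 0 in each group, and share library depth and quality. In CMA 1 the median deviation of the 9 genes other than Thy1 was -0.43 on the log2 scale, and in C-178 plus CMA 3 it was -0.67. In C-178 plus CMA 2 it was 0.27 and in CMA 2 0.35, the highest. In the unstimulated libraries it lay between -0.05 and 0.11.

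**Figure D4:**
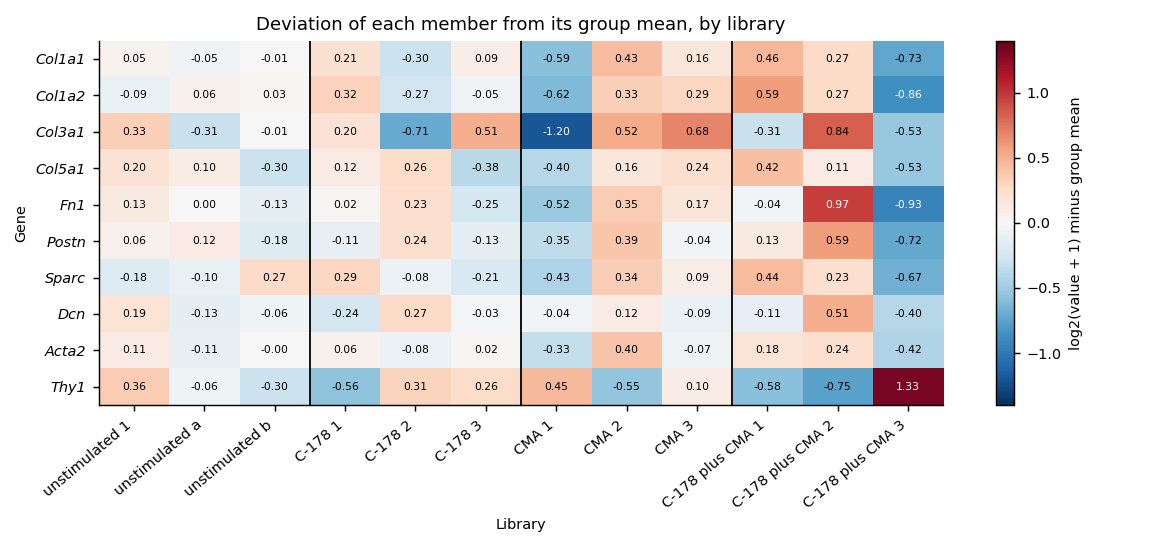
Deviation of log2(value + 1) from the group mean for each of the 10 genes (rows) in each of the 12 libraries (columns, with lines between groups), with the value printed in each cell. CMA 1 and C-178 plus CMA 3 are blue, below the mean, for 9 of 10 genes, with Thy1 red.

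Other measures were compared across the same libraries. The deviations of all genes with a known length were related to exon length at a Spearman rho of -0.25 in CMA 1 and -0.38 in C-178 plus CMA 3, and at 0.46 in C-178 plus CMA 2 and 0.36 in C-178 2 (10917 genes, given as a description). C-178 3 had a rho of -0.27, while the median deviation of its 9 matrix genes was -0.05. The SD of the deviations of all tested genes was 0.462 in C-178 plus CMA 3, the highest of the 12, and 0.137 to 0.175 in the unstimulated libraries. In CMA 1 it was 0.254, below the 0.263 of C-178 2 and the 0.338 of C-178 plus CMA 1. In C-178 plus CMA 3 most marker lists of other cells stood lower as well. The median deviation was -0.50 for fibroblast identity genes, -0.73 for smooth muscle and pericyte genes, -0.59 for endothelial genes, -0.60 for T cell genes and -0.54 for neutrophil genes. It was 0.09 for macrophage genes and 0.23 for B cell genes. The part of length, library quality and cell makeup in the results above was not tested. Without both CMA 1 and C-178 plus CMA 3, 9 of the 10 genes were called with CMA against no stimulation (all but Dcn), where 42.4% of all genes tested were called, and 3 were called lower with C-178 plus CMA than with CMA alone, where 9.99% of all genes were.

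Genes outside the set whose deviations were most like the mean of Col1a1, Col1a2 and Col3a1 were searched among 9294 genes with a mean of at least 50. The closest were Sema7a (Pearson r = 0.96, Spearman rho = 0.91 over 12 libraries), Ephx1 (0.95 and 0.92), the type V collagen gene Col5a2 (0.92 and 0.90), Tmem194 (0.92 and 0.94) and Ppp6r1 (0.92 and 0.88). Focad, Tmem229b, Trim36, Ythdf1 and Ahcyl2 followed, at r from 0.89 to 0.91. Of these 10 genes, 1 encodes a collagen.

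Among 31 tested matrix partner genes, 7 rose and 1 fell with CMA, with a median log2 change of 0.59 against -0.01 over all genes tested. Over all genes tested 19.4% rose and 17.9% fell with CMA, so the count of risers is near that share. Versican (Vcan), a large hyaluronan-binding proteoglycan, went from 53.2 to 63.9 normalised counts up to 493 to 1082 (log2 change 3.76 ± 0.63, limma adjusted p = 0.000302). It was lower again with C-178 plus CMA, at 18.3 to 220 (-3.31 ± 0.63, adjusted p = 0.00299). The microfibril gene Fbn1 rose by 2.43 ± 0.46 and the tenascin gene Tnc by 1.05 ± 0.32, while Emilin1, an elastic fibre gene, fell (-0.74 ± 0.17). Biglycan (Bgn), a relative of decorin, rose from 336 to 376 up to 397 to 705 (0.59 ± 0.22, adjusted p = 0.0471). Col5a2, the partner chain of Col5a1, stood at 99.1 to 116 and at 112 to 251 (0.79 ± 0.32, adjusted p = 0.0702). With C-178 plus CMA against CMA, 1 of the 31 partner genes rose, Tgfbi (0.52 ± 0.12), and 1 fell, Vcan. Over all genes tested 10.6% rose and 13.5% fell in this comparison, so both counts are below those shares.

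Of 21 tested genes that fold, modify or crosslink collagen, 6 rose and none fell with CMA (median log2 change 0.29), where 19.4% and 17.9% of all genes did. None rose and 3 fell with C-178 plus CMA against CMA, where 10.6% and 13.5% of all genes did. The prolyl hydroxylase gene P4ha1 rose from 1155 to 1238 up to 3647 to 4411 (log2 change 1.77 ± 0.17, limma adjusted p = 1.62e-06). The lysyl hydroxylase gene Plod2 rose by 2.28 ± 0.34 and fell by 1.79 with C-178 plus CMA against CMA (± 0.34). Plod3 rose by 0.72 ± 0.14. The lysyl oxidase-like genes Loxl2 (0.81 ± 0.27) and Loxl3 (0.38 ± 0.13) rose as well, and both were lower with C-178 plus CMA (-0.85 ± 0.27 and -0.46 ± 0.13). Lox stood at 384 to 480 and at 448 to 663 (0.38 ± 0.34, adjusted p = 0.413). Serpinh1, the collagen chaperone gene, stood at 70.5 to 97.4 and 88.1 to 96.7 (0.23 ± 0.24, adjusted p = 0.485).

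The fibroblast identity list had 21 tested genes, of which 7 rose and 3 fell with CMA (median log2 change 0.56), against 19.4% and 17.9% of all genes. With C-178 plus CMA against CMA, 1 rose and 5 fell (median -0.41), against 10.6% and 13.5%. Fap, the gene of fibroblast activation protein, went from 2.53 to 3.04 up to 169.8 to 459.9 (log2 change 6.38 ± 0.68, limma adjusted p = 4.88e-06), and was lower with C-178 plus CMA than with CMA (log2 change -4.46 ± 0.68). Cdh11, a mesenchymal cadherin gene, rose by 1.16 ± 0.25 and Mmp14 by 0.93 ± 0.14, and both were lower with C-178 plus CMA (-1.09 ± 0.25 and -0.60 ± 0.14). Ly6a fell with CMA (-0.58 ± 0.19) and was higher with C-178 plus CMA (1.01 ± 0.19). Pdgfra (-0.43 ± 0.40, adjusted p = 0.423) and Pdgfrb (-0.23 ± 0.36, adjusted p = 0.654) were not called. The summed level of the whole list was 6714 to 7230 without stimulation, 6059 to 6444 with C-178, 6972 to 8272 with CMA and 4462 to 6947 with C-178 plus CMA.

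Stromal cells of bone marrow and mural cells gave a mixed picture. Of 9 tested marrow stroma genes, 4 rose and 2 fell with CMA (median log2 change 0.08), against 19.4% and 17.9% of all genes. Those that fell were Cebpd (-1.56 ± 0.41), a transcription factor gene, and the lipoprotein lipase gene Lpl (-0.50 ± 0.13). The summed level of the list went from 32220 to 35820 down to 24200 to 26560. This sum rests on few genes, and Lpl, Spp1 and Cebpd were the highest over all libraries. Of the 23 list genes found, 4 were above 100 normalised counts in the unstimulated group, with a median of 3.21. The tested genes that rose with CMA were the stem cell factor gene Kitl (log2 change 2.33 ± 0.37), the intermediate filament gene Nes (2.78 ± 0.26), Angpt1 (3.70 ± 0.52) and Vcam1 (0.65 ± 0.16). The 4 genes that rose were lower with C-178 plus CMA than with CMA (Kitl -1.19 ± 0.37, Nes -1.52 ± 0.26, Angpt1 -2.77 ± 0.52 and Vcam1 -0.88 ± 0.16, limma adjusted p = 0.0330, 0.00159, 0.00285 and 0.00196). Cxcl12, the defining chemokine gene of marrow stroma, stood at 34.0 to 47.9 and 19.8 to 49.3 (-0.30 ± 0.50, adjusted p = 0.681). Of 7 tested smooth muscle and pericyte genes none rose and Tpm1 fell (-0.86 ± 0.12). Of 8 tested endothelial genes Kdr rose (2.48 ± 0.30) and none fell. Markers of blood cells were given the same test. Of 24 macrophage genes 2 rose and 3 fell with CMA (median log2 change 0.02). The Fc receptor gene Fcgr1 (2.53 ± 0.12) and Mertk (1.31 ± 0.27) rose, and Spi1 (-0.92 ± 0.19), Cd14 (-0.44 ± 0.13) and the growth factor receptor gene Csf1r (-0.52 ± 0.17) fell. Of 11 tested neutrophil genes limma called none (median -0.12), and of 3 tested B cell genes Cd22 rose (0.54 ± 0.16) and Blnk (-1.13 ± 0.12) and Cd79b (-0.76 ± 0.15) fell.

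Among enzymes that cut matrix and receptors that bind it, some of the changes were large. The collagenase gene Mmp13 rose from 31.1 to 44.1 up to 5533 to 12430 (log2 change 7.83 ± 0.66, limma adjusted p = 5.33e-07), and was lower with C-178 plus CMA than with CMA (-3.61 ± 0.66). Of 22 tested proteases and inhibitors, 8 rose and 2 fell with CMA (median log2 change 0.42), against 19.4% and 17.9% of all genes. With C-178 plus CMA against CMA, 2 rose and 8 fell (median -0.29), against 10.6% and 13.5%. Adam19 fell with CMA (-2.02 ± 0.28), as did Mmp19 (-0.81 ± 0.11). Of 24 tested matrix receptors 7 rose and 1 fell with CMA (median 0.31), against 19.4% and 17.9% of all genes, and none rose and 6 fell with C-178 plus CMA against CMA (median -0.42). On the log2 scale the syndecan gene Sdc4 rose by 4.69 ± 0.18, the collagen-binding integrin gene Itga1 by 4.35 ± 0.33 and the fibronectin receptor gene Itga5 by 1.15 ± 0.17. All 3 were lower with C-178 plus CMA (Sdc4 -3.24 ± 0.18, Itga1 -3.67 ± 0.33 and Itga5 -1.06 ± 0.17).

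In the pathway of TGF-beta, the growth factor that drives collagen genes in fibroblasts, 4 of 26 tested genes rose and 7 fell with CMA (median log2 change 0.06), against 19.4% and 17.9% of all genes. With C-178 plus CMA against CMA, 6 rose and 2 fell (median -0.21), against 10.6% and 13.5%. The receptor gene Tgfbr1 fell from 2292 to 2507 down to 945 to 1005 (log2 change -1.27 ± 0.12, limma adjusted p = 1.93e-06), and the signal transducer gene Smad3 fell from 181 to 214 down to 38.6 to 54.4 (-2.14 ± 0.27). Ski, a repressor of this pathway, fell (-0.99 ± 0.12), while its relative Skil rose (1.68 ± 0.26). With C-178 plus CMA against CMA, Tgfbr1 (0.48 ± 0.12), Smad3 (0.93 ± 0.27) and Ski (0.37 ± 0.12) were higher and Skil was lower (-1.19 ± 0.26). The ligand gene Tgfb1 stood at 3123 to 3851 without stimulation and 2460 to 2591 with CMA, which did not pass (-0.46 ± 0.18, adjusted p = 0.0550). With C-178 alone, limma called no gene of any of the 13 lists.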

How the data were processed

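The authors deposited a table of normalised counts per gene (a signal on the scale of counts divided by a size factor for each library) for 12 libraries, and per the submitters' processing notes Bowtie2 2.2.1, limma 3.18.13 and the build mm10 were used, with no role stated for each tool. Per the labels, libraries were made with the stranded TruSeq mRNA kit. Per the sources used here, the counting of reads, its annotation and its strand option are not given. Dividing each deposited column by its smallest step gave whole reads for 100% of values (tolerance 0.01). Its 12 columns of Cook's distances stayed out. Of 3 unstimulated columns, 2 share a heading, so these libraries are called a and b.

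An entry was tested when 3 or more of the 12 libraries exceeded 10 normalised counts (11440 of 24062 entries). Log2 of value + 1 was fitted over all 12 libraries with limma 3.58.1 in R 4.3.3 (eBayes with trend), with adjustment after Benjamini and Hochberg over all tested genes and calls at an adjusted p under 0.05. Changes are on the log2(value + 1) scale, which understates those of genes with few reads. Alternatives were edgeR 4.0.16 (quasi-likelihood) and DESeq2 1.42.0 on the recovered reads, pseudocounts of 0.5 and 5, other filters, TMM and quantile scaling, array weights, fits of only the groups compared, and leaving out each library. For all genes the limma, edgeR and DESeq2 fits called 2224, 2235 and 2429 rises and 2047, 2047 and 1986 falls with CMA. The limma script was tested on simulated data. Tables were handled in Python 3.11.15 (numpy 2.4.6, pandas 2.3.3) and plots drawn in matplotlib 3.10.9.

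Exon lengths and gene positions are from GENCODE M21 (mm10), with 22724 entries matched by symbol, and promoters from RefSeq (GRCm38.p6), matched by symbol for 6 of the 10 genes. The exon length is the union of a gene's exons. The 10 genes and the 13 marker lists were chosen with earlier results of these data known. From each list up to 4 called genes with the smallest adjusted p in a comparison and the 3 with the highest mean level were eligible to be named; other list genes that the report gives (such as Lum, Eln, Bgn, Pdgfra, Pdgfrb, Prrx1, Lox, Serpinh1, Cxcl12, Cd3e, Csf1r and Tgfb1) were chosen after their values were seen. The lists share some genes, such as Fbn1, Fap and Mmp14.

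Library numbers were checked for pairing by the correlation of deviations from group means over all tested genes. Only libraries of the same number were compared, so a shared culture and shared library traits, such as depth, cannot be told apart. Libraries of the same number given C-178, alone or with CMA, had 0.45, 0.43 and 0.26, all above 0.1, so the numbers were taken to pair these groups; a shared culture is not stated in the labels. Those given CMA, alone or with C-178, had -0.14, 0.18 and -0.16, which are not all above 0.1, so pairing of these groups was not found. The fit with the replicate block took in both pairs of groups all the same.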

Additional observations from a re-analysis of the deposited data

Results flagged for a closer look

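The change of Postn with CMA differed with and without C-178, by a test of the difference itself: the interaction was -1.50 ± 0.39 on the log2 scale (limma adjusted p = 0.0316). Without the inhibitor Postn went from 147 to 181 normalised counts up to 259 to 434 with CMA, higher in 3 of 3 libraries. With C-178 it stood at 209 to 269.5 and with C-178 plus CMA at 96.3 to 241. These ranges overlap, and within library numbers Postn was lower with CMA added in 3 of 3 pairs (limma adjusted p = 0.122 with the replicate block). C-178 plus CMA 3, the lowest of these libraries, had 63 Postn reads, and without it the interaction was -1.14 (adjusted p = 0.0267). Leaving out each library in turn gave -1.80 to -1.14, with adjusted p from 0.00284 to 0.0912.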

How the results depend on the processing

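The precision is limited by few reads for Thy1 (1 to 35 per library) and Col3a1 (5 to 49), by 3 libraries a group, and by the spread between the libraries with C-178 plus CMA. Of the alternatives' log2 changes of single genes, 1080 kept their direction and side of the threshold, 55 lost and 62 gained a call, and 22 took the opposite sign. Quantile scaling moved the median of all genes by -0.11 for CMA against no stimulation. Leaving out 2 libraries at once, and the 9 numbered libraries without the block, were chosen after seeing the data. Where a value changed, the cause was not tested.

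The number of the 10 genes called with CMA against no stimulation (4) was 9 with only the groups compared, 10 with array weights, 9 without both CMA 1 and C-178 plus CMA 3, and 1 to 9 with each library left out in turn. Over all genes tested the first 3 of these fits called 54.8%, 64.5% and 42.4%. The number of the 10 called fell to 1 without unstimulated library b (30.6% of all genes) or CMA 2 (29.1%). It was 2 without unstimulated library a (29.0%). It was 7 without CMA 1 (33.6%) or C-178 plus CMA 2 (41.7%), and 9 without C-178 plus CMA 3 (45.1%). For C-178 against no stimulation it was 0, and 3 with array weights (16.2% of all genes). For C-178 plus CMA against CMA (4) it was 2 with no filter (14.75% of all genes) and 0 with only the groups compared (7.465%). It was 2 with edgeR (24.1%) and 2 without both C-178 1 and C-178 plus CMA 1 (16.8%). With each library left out it was 0 to 5 (11.4% to 41.3%). With the replicate block, over the 9 numbered libraries, it was 4 (20.8%), against 2 without the block (14.84%). Library numbers were not found to pair CMA with C-178 plus CMA. Where both compounds were set against C-178 it was 0 (26.1% of all genes), also with the replicate block (22.7%). It was 1 without both CMA 1 and C-178 plus CMA 3 (27.4%). With each library left out it was 0 to 3 (17.0% to 36.6%). For the interaction (1) it was 0 with no filter (5.02% of all genes) and 2 with quantile scaling (10.02%). It was 5 with array weights (27.2%) and 4 with DESeq2 (15.02%). It was 4 without both CMA 1 and C-178 plus CMA 3 (10.4%), and 0 without both C-178 1 and C-178 plus CMA 1 (7.985%). With each library left out it was 0 to 5 (2.987% to 32.41%). The fit without C-178 plus CMA 2 gave the 5, and called 32.41% of all genes. A replicate block was not run where unstimulated libraries enter, since 2 of their columns carry no number of their own.

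Signs turned for changes that were not called. Col5a1 with C-178 was -0.028 with array weights. Col3a1 with C-178 plus CMA against CMA was -0.018 with a pseudocount of 5, -0.32 with array weights, -0.33 without both CMA 1 and C-178 plus CMA 3, -0.12 with edgeR and -0.10 with DESeq2, and -0.60 to 0.34 with each library left out. Thy1 there was -0.094 to 0.945 with each library left out. Against C-178, without both CMA 1 and C-178 plus CMA 3, Col1a1 was 0.14, Col1a2 0.35, Acta2 0.009 and Sparc 0.068. Col1a2 was also 0.19 with array weights, 0.038 with edgeR and 0.020 with DESeq2, and Sparc 0.057 with array weights. With each library left out Col1a1 was -0.46 to 0.14, Col1a2 -0.38 to 0.35, Acta2 -0.32 to 0.009 and Sparc -0.49 to 0.068.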
